A study of Mus musculus with 6 samples.

Results

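The genes described here are 40 genes of DNA replication and S phase in alveolar macrophages (AMs), the macrophages of the lung airspaces. They were chosen by name and role, with earlier results of these data known. Each was found as 1 row among the 24341 rows of the deposited expression table. All 40 averaged 0.5 FPKM or more across the 6 samples and were tested among the 10800 genes that passed this filter. FPKM is the fragment count of a gene scaled by the length of its transcript and by the size of the library, so that levels of different genes can be compared.

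AMs were washed from the lungs of female C57BL/6 mice aged 6 to 10 weeks by bronchoalveolar lavage (BAL), and red cells were lysed. The comparison was between CD44+/+ mice and CD44-/- mice, which carry a germline knockout of the hyaluronan receptor CD44 in all of their cells, with no treatment in either group. Each genotype had 3 samples, and each sample was RNA pooled from 2 or 4 mice, so the error given below is the spread between pools. The study's methods list the pools of a genotype as 4, 2 and 2 mice, in that order, which can be read as making replicate 1 the pool of 4. The labels give no pool sizes, and the part of pool size in the results was not tested.

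Cells copy their DNA once per division. In G1, the origin recognition complex with Cdc6 and Cdt1 loads the Mcm helicase on chromatin, and geminin blocks a repeat of this step later in the cycle. Cyclin E with Cdk2 and the E2F transcription factors carry the cell into S phase, where the helicase is activated and DNA polymerases, their sliding clamp PCNA, the clamp loader RFC and the enzymes of nucleotide supply copy the genome. AMs maintain themselves in the adult lung largely by local division, and transcripts of this machinery come mainly from dividing cells. In bulk samples a smaller dividing fraction and less RNA per dividing cell cannot be told apart.

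Cd44 averaged 534 FPKM (SD 6.68) in the CD44+/+ samples and 53.5 FPKM (SD 1.87) in the CD44-/- samples, with n = 3 each. This was a log2 fold change of -3.32 with an adjusted p of 4.19e-09 in limma, so the table followed the labels. AM markers such as Siglecf and Marco summed to between 16965 and 19701 FPKM in the CD44+/+ samples and to between 16467 and 20709 FPKM in the CD44-/- samples. Hemoglobin and other erythroid genes ranged from 14.7 to 337 FPKM in sum over 8 genes and were highest in both samples numbered 2. Over 10 lymphocyte genes the sum ranged from 278 to 317 FPKM, nearly all of it Cd2, while the T and B cell genes Cd3e, Cd3d and Cd79a each stayed under 0.3 FPKM. Sums of neutrophil genes (7 rows) were 79.5 to 177 FPKM in CD44+/+ and 84.9 to 98.5 FPKM in CD44-/- AMs, those of 6 monocyte genes 311 to 433 FPKM and 226 to 299 FPKM, and those of 10 epithelial genes 594 to 895 FPKM and 557 to 773 FPKM. Only the monocyte sums did not overlap between the genotypes. An unadjusted p under 0.05 was found for 4 of 9 tested epithelial genes (3 higher in CD44-/- AMs), 2 of 6 neutrophil genes (1 higher), 1 of 2 monocyte genes (lower) and 1 of 10 AM markers (lower), and none passed after adjustment in limma. Of all genes tested, 7.69% had an unadjusted p under 0.05 in either direction and 4.75% had one as higher. The part of these cells in the results below was not tested. Read numbers were not used here. Relative depth, with CD44+/+ replicate 1 set to 1, ranged from 0.812 to 1.05.

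Across the 40 genes, most log2 fold changes were small and positive, and no single gene passed the adjusted threshold. The log2 fold change, always given as CD44-/- over CD44+/+ on log2(FPKM + 0.1), was positive in 33 of 40 genes, against 55.8% of all genes tested. Its median was 0.13, against 0.01 over all genes tested, and it ranged from -0.15 for Cdt1 to 0.62 for Ccne1. None of the 40 had an adjusted p under 0.05 in limma, and 12 of the 10800 genes (0.111%) did. At an unadjusted p under 0.05 there were 7 of 40 (17.5%), all 7 of them higher in CD44-/- AMs, where 7.69% of all genes passed in either direction and 4.75% passed as higher. Of all the genes that passed, 61.7% were higher in CD44-/- AMs, and 50.5% were under quantile normalization. The 3 samples of one genotype did not overlap those of the other in 5 of 40 genes (12.5%), which is close to the 11.6% of all genes. Scaled by median ratios or by quantiles, 30 of 40 genes were positive and 6 had an unadjusted p under 0.05, where 49.4% and 48.1% of all genes were positive and 8.31% and 8.34% passed.

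**Figure D1:**
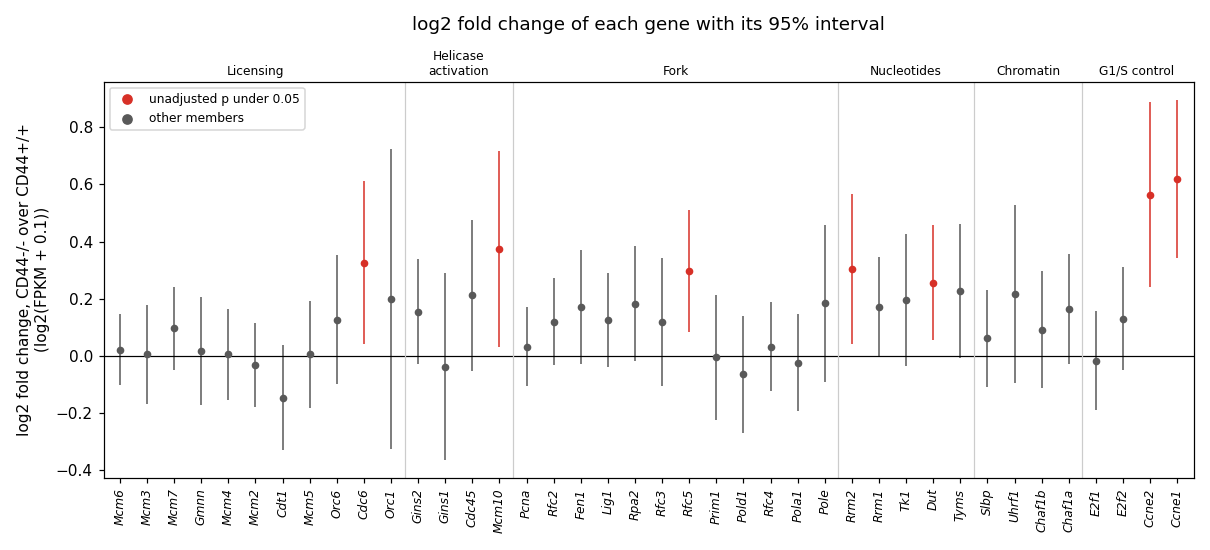
The vertical axis gives the log2 fold change of CD44-/- over CD44+/+ AMs for each of the 40 genes (horizontal axis, by role), with bars for the 95% interval from limma. The intervals of 33 genes include 0, and those of the 7 genes drawn in red, among them Ccne1 at 0.62 and Ccne2 at 0.56, lie above it.

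The CD44-/- samples were not alike. Set against the average of the CD44+/+ samples, the 40 genes had median log2 differences of -0.01, 0.23 and 0.19 in CD44-/- replicates 1, 2 and 3. The CD44+/+ samples themselves lay at 0.00, 0.02 and -0.04. CD44-/- replicate 1 was the lowest sample of its genotype for 35 of 40 genes (87.5%), where it was the lowest for 28.0% of all genes tested. It exceeded the CD44+/+ mean for 18 of 40 genes, whereas replicates 2 and 3 did so for 37 and 34. Of all genes tested, 61.4%, 54.9% and 48.5% lay above that mean in replicates 1, 2 and 3. Summed over the 40 genes, the CD44+/+ samples held 811, 830 and 794 FPKM and the CD44-/- samples 787, 909 and 892 FPKM. Without CD44-/- replicate 1, 20 of 40 genes had an unadjusted p under 0.05, against 8.55% of all genes, still with none under 0.05 after adjustment, and the median log2 fold change was 0.19. Without replicate 2 or replicate 3 of CD44-/- the count was 3 of 40 in each case, against 5.19% and 5.34% of all genes, and without CD44+/+ replicate 3 it was 4, against 6.69%. Without CD44+/+ replicate 1 it was 5 of 40 (12.5%), the same share as the 12.5% of all genes. Without both samples numbered 2, where hemoglobin transcripts were highest, it was also 4, against 3.26% of all genes, with 30 of 40 genes positive. That setting was chosen after the data were seen. Same-numbered samples of the 2 genotypes deviated together, and with the replicate number as a block 13 of 40 genes had an unadjusted p under 0.05, against 9.71% of all genes, again with none after adjustment.

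**Figure D2:**
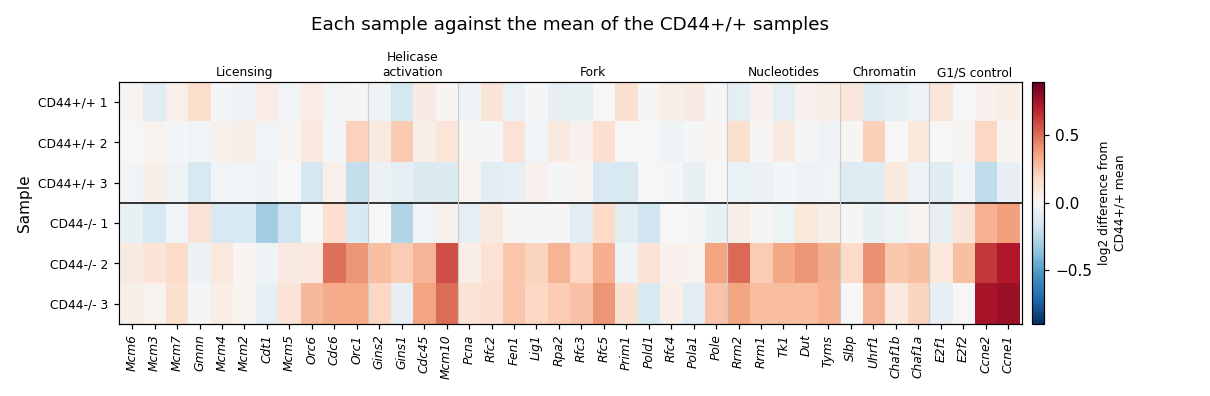
Each column is one of the 40 genes and each row a sample, and the colour gives the log2 difference from the mean of the 3 CD44+/+ samples on log2(FPKM + 0.1). CD44-/- replicate 1 lies above the CD44+/+ mean at 18 of 40 genes, Ccne1 and Ccne2 among them, and CD44-/- replicates 2 and 3 are mostly red, with medians of 0.23 and 0.19.

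Of the genes that govern entry into S phase, both E-type cyclins had an unadjusted p under 0.05 and were higher in CD44-/- AMs. The E2F activators did not pass, and the difference between the pairs was not tested. Ccne1 (chr7:38097984-38107534, minus strand), which encodes cyclin E1, the partner of Cdk2 at the G1/S boundary, was at 3.67, 3.58 and 3.34 FPKM in CD44+/+ AMs and at 4.59, 5.88 and 6.08 FPKM in CD44-/- AMs. Every CD44-/- sample lay above every CD44+/+ sample, including replicate 1. The means were 3.53 FPKM ± 0.171 and 5.52 FPKM ± 0.809 (SD, n = 3 each), a ratio of 1.56. The log2 fold change was 0.62 (SE 0.12), with an unadjusted p of 0.000751 and an adjusted p of 0.162 in limma. With the replicate block the adjusted p was 0.215, and it ranged from 0.0536 without CD44-/- replicate 1 to 1 without both samples numbered 2.

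Ccne2 (chr4:11191351-11204779, plus strand), which encodes cyclin E2 and acts beside cyclin E1, was at 4.77, 5.31 and 3.96 FPKM in CD44+/+ AMs and at 5.80, 7.30 and 7.83 FPKM in CD44-/- AMs. Here too the genotypes did not overlap. The log2 fold change was 0.56 (SE 0.14), with an unadjusted p of 0.00358 and an adjusted p of 0.325 in limma. Of its exonic bases, 17.4% lie within exons of Ints8 on the other strand, and whether strand was used in counting was not stated, so its reads and those of Ints8 may be mixed. Ccne1 and Ccne2 each kept an unadjusted p under 0.05 in 16 of 16 alternatives run.

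E2f1, an activator of S phase genes, was at 26.4, 24.5 and 22.7 FPKM in CD44+/+ AMs and at 23.3, 26.2 and 23.3 FPKM in CD44-/- AMs, with full overlap and a log2 fold change of -0.02 (95% interval -0.19 to 0.16). Its relative E2f2 was at 12.3, 12.6 and 12.1 FPKM against 13.4, 14.9 and 12.4 FPKM, a log2 fold change of 0.13 (95% interval -0.05 to 0.31). The samples of E2f2 overlapped only through CD44-/- replicate 3. E2f1 was the most abundant of these 4 genes and Ccne1 the least, with means over all samples of 24.4 and 4.52 FPKM.

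**Figure D3:**
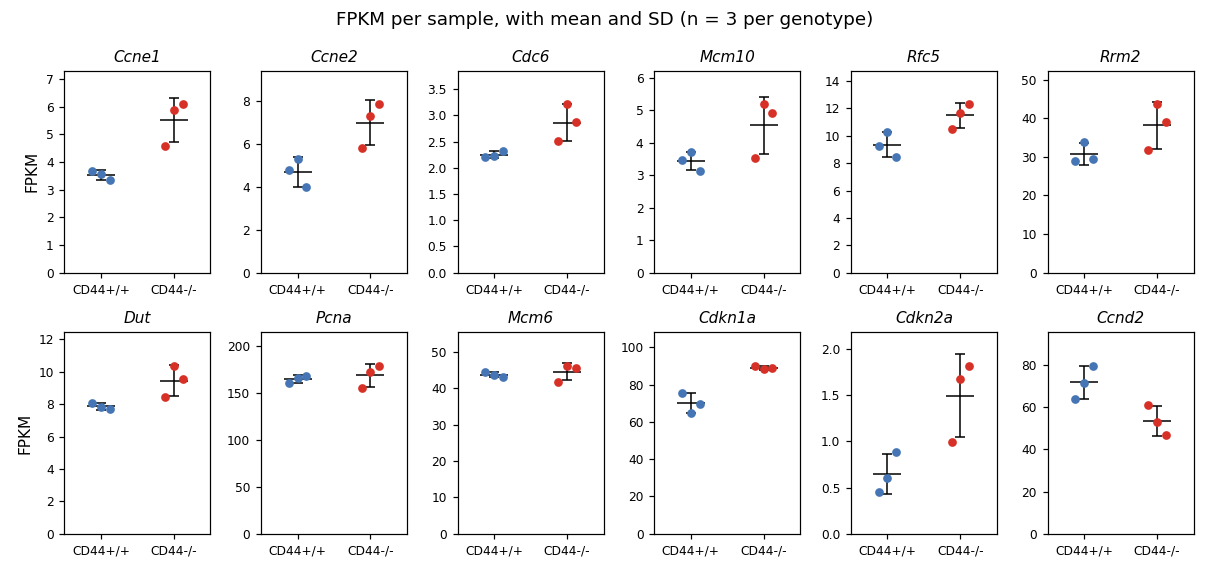
Points are the FPKM of single samples, and black bars the mean ± SD of the 3 samples of each genotype, for 9 of the 40 replication genes and for Cdkn1a, Cdkn2a and Ccnd2. Ccne1 lies between 3.34 and 3.67 FPKM in CD44+/+ and between 4.59 and 6.08 FPKM in CD44-/- AMs, while Mcm6 and Pcna overlap fully.

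Among the 11 genes of origin licensing, Cdc6 alone was higher in CD44-/- AMs at an unadjusted p under 0.05, and the 6 subunits of the Mcm helicase stayed near a log2 fold change of 0. Cdc6 (chr11:98907801-98923940, plus strand), the loader that brings the helicase to origins, was at 2.20, 2.22 and 2.32 FPKM in CD44+/+ AMs and at 2.50, 3.21 and 2.87 FPKM in CD44-/- AMs. The genotypes did not overlap, and the log2 fold change was 0.33 (SE 0.12, adjusted p = 0.571 in limma). Its unadjusted p was no longer under 0.05 without CD44+/+ replicate 1 or 2, without CD44-/- replicate 2 or 3, or without both samples numbered 2. Cdt1, the other loader, had the lowest fold change of the 40 genes, -0.15 (95% interval -0.33 to 0.04), and its inhibitor Gmnn (geminin) was at 0.02 (95% interval -0.17 to 0.21).

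Mcm6 was the most abundant helicase subunit, at 44.5, 43.7 and 43.1 FPKM in CD44+/+ AMs and at 41.8, 46.2 and 45.5 FPKM in CD44-/- AMs. Mcm3 followed at 38.4, 41.9 and 42.6 FPKM against 37.2, 44.5 and 41.9 FPKM. For both genes the CD44-/- samples spanned the whole range of the CD44+/+ samples, and the log2 fold changes were 0.02 (95% interval -0.10 to 0.15) and 0.01 (95% interval -0.17 to 0.18). Over Mcm2 to Mcm7 the fold changes lay between -0.03 (Mcm2) and 0.10 (Mcm7), with 95% intervals that reached no lower than -0.18 and no higher than 0.24. Scaling by median ratios or quantiles turned the sign of Mcm3, Mcm4 and Mcm5. CD44-/- replicate 1 was the lowest of all 6 samples for 5 of these 6 subunits. Without that sample all 6 fold changes were positive, with a median of 0.08, and Mcm7 was at 0.16 (unadjusted p = 0.0263, adjusted p = 0.467 in limma). Without CD44-/- replicate 2 only 1 of the 6 was positive, and without CD44-/- replicate 3 only 2 were, with medians of -0.03 and -0.01. The mean levels of the subunits, which form a ring with 1 copy of each, were within 1.97 times of each other, from 22.4 FPKM for Mcm5 to 44.1 FPKM for Mcm6.

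The origin recognition subunits differed in level. Orc1, whose binding to chromatin varies over the cell cycle, was the least abundant of all 40 genes, with a mean of 0.749 FPKM ± 0.122 in CD44+/+ AMs and 0.880 FPKM ± 0.185 in CD44-/- AMs. Orc6 was at 9.80 FPKM ± 0.888 and 10.7 FPKM ± 1.11. Their log2 fold changes were 0.20 (95% interval -0.33 to 0.73) and 0.13 (95% interval -0.10 to 0.35), neither past the threshold. Exons of Gm12743 on the other strand cover 10.8% of the exonic bases of Orc1.

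**Figure D4:**
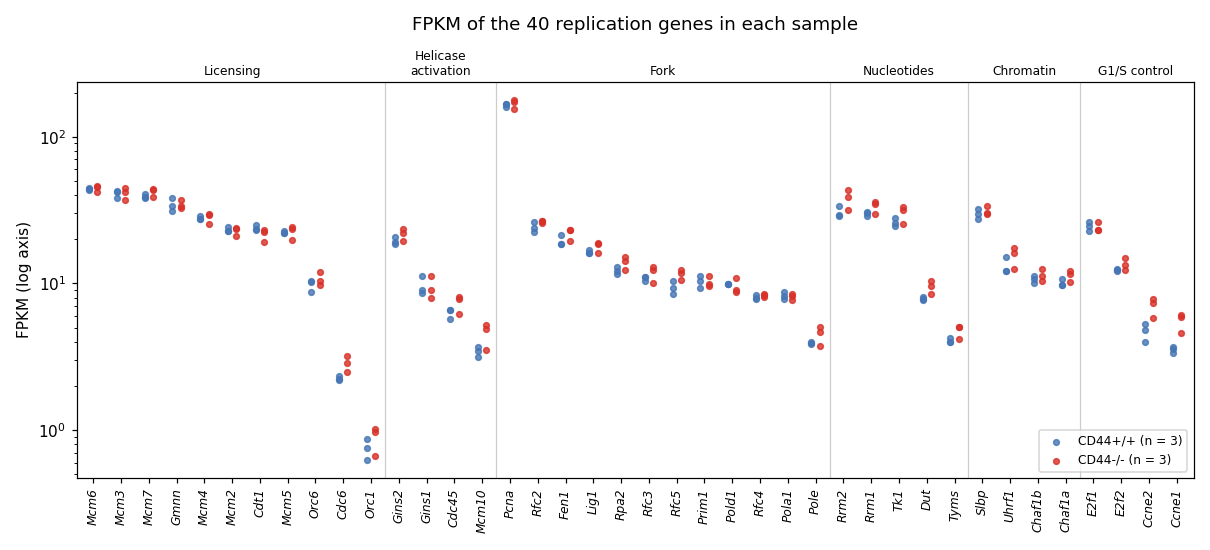
FPKM of the 40 genes in each of the 6 samples on a log axis, ordered by role and by mean level, with CD44+/+ in blue and CD44-/- in red (n = 3 each). Levels run from Orc1 at 0.626 FPKM to Pcna at 179 FPKM, and the genotypes are close together at most genes.

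Replication genes are known targets of E2F, and the window of 250 bases before to 50 bases after the start was read from a RefSeq promoter table (GRCm38.p6) for 33 of the 40 genes. No entry was held for Ccne2, Pole, Rfc2, Gins1, Gins2, Mcm4 and Gmnn. The 8-letter E2F words TTTCGCGC, TTTGGCGC, TTTCCCGC and TTTGCCGC, searched on both strands with overlaps counted, were found for 13 of the 33 genes (39.4%), against 2.6% of all 27025 genes of the table and 4.98% of the 8359 tested genes with an entry. A gene with several windows was counted once, by any of them. The 4 promoters shown here are those of the 2 most abundant helicase genes, of Cdc6 and of Ccne1, the gene with the largest fold change, and capitals mark the E2F words. They run 5′ to 3′ along each gene's own strand, at chr1:128359656-128359955 (minus strand) for Mcm6, chr1:20820263-20820562 (minus strand) for Mcm3, chr11:98907901-98908200 (plus strand) for Cdc6 and chr7:38107441-38107740 (minus strand) for Ccne1.
Mcm6: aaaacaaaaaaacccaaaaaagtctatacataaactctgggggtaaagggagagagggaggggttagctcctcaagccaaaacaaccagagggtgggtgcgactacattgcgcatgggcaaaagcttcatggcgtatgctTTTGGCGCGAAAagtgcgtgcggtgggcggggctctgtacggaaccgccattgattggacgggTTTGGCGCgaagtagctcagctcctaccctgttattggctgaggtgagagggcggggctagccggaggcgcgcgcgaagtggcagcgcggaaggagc
Mcm3: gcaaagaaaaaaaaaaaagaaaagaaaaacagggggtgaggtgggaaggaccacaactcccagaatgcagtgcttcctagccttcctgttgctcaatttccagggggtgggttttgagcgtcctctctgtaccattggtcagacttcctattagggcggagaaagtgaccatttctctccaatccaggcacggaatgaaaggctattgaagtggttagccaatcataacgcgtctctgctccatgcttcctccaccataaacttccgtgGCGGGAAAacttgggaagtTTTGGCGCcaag
Cdc6: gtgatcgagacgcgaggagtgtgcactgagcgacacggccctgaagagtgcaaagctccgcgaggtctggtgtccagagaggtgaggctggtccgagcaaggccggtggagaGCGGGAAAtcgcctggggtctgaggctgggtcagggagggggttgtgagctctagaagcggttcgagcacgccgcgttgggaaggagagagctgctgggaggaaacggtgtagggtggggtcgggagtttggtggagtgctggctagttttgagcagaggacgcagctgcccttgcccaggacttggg
Ccne1: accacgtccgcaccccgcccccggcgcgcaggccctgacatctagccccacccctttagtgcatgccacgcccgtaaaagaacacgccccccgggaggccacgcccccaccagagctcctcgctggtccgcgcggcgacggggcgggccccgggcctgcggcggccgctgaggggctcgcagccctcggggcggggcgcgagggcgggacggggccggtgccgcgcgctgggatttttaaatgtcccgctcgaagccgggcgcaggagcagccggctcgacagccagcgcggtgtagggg

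Positions count from the start in the RefSeq table, which for Cdc6 lies downstream of the GENCODE start given above, so that its window is within the GENCODE gene. The window of Mcm6 held 3 E2F words, of which those beginning 110 and 106 bases before the start overlap and the third begins 47 bases before it. That of Mcm3 held 2 words, both after the start. That of Cdc6 held 1, beginning 138 bases before the start, and that of Ccne1 held none of these letters, which says nothing about binding of E2F there. E2F words were found for 4 of the 5 genes of Mcm2 to Mcm7 with an entry, whose fold changes were near 0, and for 1 of the 6 genes with an entry and an unadjusted p under 0.05. The median log2 fold change was 0.10 (range -0.15 to 0.33) over the 13 genes with a word and 0.17 (range -0.03 to 0.62) over the 20 genes without one. The difference between these groups was not tested. The word CCAAT was found for 20 of 33 genes (60.6%, against 41.1% of all genes of the table and 43.4% of those tested), and TTTGAA, a core of the element of genes used in mitosis, for 4 of 33 (12.1%, against 20.2% and 14.2%). For 17 mitosis genes the shares were 88.2% for CCAAT, 70.6% for TTTGAA and 5.88% for the E2F words.

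Of the 4 genes that activate the helicase, Mcm10 was higher in CD44-/- AMs at an unadjusted p under 0.05. Mcm10 (chr2:4989714-5012791, minus strand), which is needed for the loaded helicase to start unwinding, was at 3.47, 3.71 and 3.14 FPKM in CD44+/+ AMs and at 3.53, 5.17 and 4.89 FPKM in CD44-/- AMs. The overlap came from CD44-/- replicate 1, which lay among the CD44+/+ samples. Its log2 fold change was 0.37 (SE 0.15, adjusted p = 0.599 in limma), and it lay between 0.27 and 0.54 when 1 sample was left out. The unadjusted p was no longer under 0.05 without CD44+/+ replicate 1 or 3, CD44-/- replicate 2 or 3 or both samples numbered 2, nor under quantile normalization or with no filter.

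Cdc45 and the GINS subunits Gins1 and Gins2 join the Mcm ring to make the active helicase. Gins2, the most abundant of the group, was at 19.0, 20.6 and 18.7 FPKM against 19.5, 23.5 and 22.1 FPKM, a log2 fold change of 0.16 (SE 0.08, adjusted p = 0.729 in limma). With the replicate block its unadjusted p was 0.0402 and its adjusted p 0.481 in limma. Gins1 was at 8.54, 11.3 and 9.02 FPKM against 7.92, 11.2 and 9.06 FPKM. Both of its genotypes had their highest value in the sample numbered 2, and the fold change was -0.04 (95% interval -0.36 to 0.29). Cdc45 was at 0.21 (95% interval -0.05 to 0.48). Exons of Gse1 on the other strand cover 67.3% of the exonic bases of Gins2, so its level is uncertain.

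Of the 12 genes of the replication fork, Rfc5 was higher in CD44-/- AMs without overlap, and the sliding clamp and most polymerase genes differed by less than their spread. Rfc5 (chr5:117378103-117389047, minus strand), a small subunit of the clamp loader, was at 9.29, 10.3 and 8.47 FPKM in CD44+/+ AMs and at 10.5, 11.7 and 12.3 FPKM in CD44-/- AMs. The lowest CD44-/- sample was just above the highest CD44+/+ sample, and under median-ratio or quantile scaling the genotypes overlapped. The log2 fold change was 0.30 (SE 0.09, adjusted p = 0.470 in limma), and its unadjusted p was no longer under 0.05 without CD44-/- replicate 3. Of its exonic bases, 10.7% lie in exons of Wsb2 on the other strand. The other small subunits of the loader lay lower, with fold changes of 0.12 for Rfc2, 0.12 for Rfc3 and 0.03 for Rfc4. Rfc2, the most abundant of them, was at 26.2, 24.0 and 22.5 FPKM against 25.7, 26.5 and 26.7 FPKM, so that 1 CD44+/+ sample overlapped. Exons on the other strand also cover 15.1% of the exonic bases of Rfc2 (Lat2) and 12.65% of those of Rfc4 (Eif4a2).

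Pcna (chr2:132249162-132253314, minus strand), the clamp that holds the polymerases on DNA, was the most abundant of the 40 genes. It was at 160, 166 and 168 FPKM in CD44+/+ AMs and at 155, 172 and 179 FPKM in CD44-/- AMs, with CD44-/- replicate 1 the lowest of all. Its log2 fold change was 0.03 (95% interval -0.11 to 0.17). The clamp was thus at 3.78 times the level of the next gene, Mcm6. GENCODE lists the pseudogenes Pcna-ps1 and Pcna-ps2, and reads could have been divided between the copies.

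The polymerase genes had no common direction. Pole, the catalytic subunit of the leading strand polymerase, was at 0.18 (95% interval -0.09 to 0.46), Pold1, that of the lagging strand polymerase, at -0.06 (95% interval -0.27 to 0.14), and Pola1 and Prim1, which make the primers, at -0.02 (95% interval -0.19 to 0.15) and 0.00 (95% interval -0.22 to 0.21). For Pole, CD44+/+ AMs were within 3.85 to 3.96 FPKM and CD44-/- AMs were at 3.73, 5.03 and 4.69 FPKM. The genes that finish the lagging strand, of the flap nuclease Fen1 and the ligase Lig1, had log2 fold changes of 0.17 and 0.13, neither with an unadjusted p under 0.05, and Rpa2, a subunit of the single-strand binding protein, was at 0.18. With the replicate block Fen1 and Rpa2 reached unadjusted p-values of 0.0398 and 0.0246 in limma (adjusted p = 0.480 and 0.424). Of the exonic bases of Fen1, 78.8% lie in the antisense gene Gm10143.

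All 5 genes of nucleotide supply had a positive fold change, from 0.17 to 0.30, and 2 of them had an unadjusted p under 0.05. Rrm2 (chr12:24708241-24714146, plus strand), the subunit of ribonucleotide reductase whose level follows S phase, was at 28.8, 33.9 and 29.4 FPKM in CD44+/+ AMs and at 31.7, 43.6 and 39.1 FPKM in CD44-/- AMs. The genotypes overlapped, but within each number the CD44-/- sample was the higher. The log2 fold change was 0.30 (SE 0.12, adjusted p = 0.571 in limma), and with the replicate block the unadjusted p was 0.00315 and the adjusted p 0.236.

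Rrm1, the large subunit of the same enzyme, was at 30.5, 30.0 and 28.7 FPKM against 29.9, 34.9 and 36.1 FPKM, a log2 fold change of 0.17 (SE 0.08, adjusted p = 0.652 in limma). Again CD44-/- replicate 1 lay among the CD44+/+ samples. Dut (chr2:125247190-125258608, plus strand), the dUTPase that keeps uracil out of DNA, was at 8.11, 7.82 and 7.71 FPKM in CD44+/+ AMs and at 8.44, 10.4 and 9.57 FPKM in CD44-/- AMs, with no overlap. Its log2 fold change was 0.26 (SE 0.09, adjusted p = 0.502 in limma). Thymidylate synthase (Tyms) and thymidine kinase (Tk1), the 2 routes to thymidine nucleotides, were at 0.23 (95% interval -0.01 to 0.46) and 0.20 (95% interval -0.04 to 0.43). Without CD44-/- replicate 1, all 5 had an unadjusted p under 0.05 in limma, and their fold changes lay between 0.26 and 0.43. None of the 5 did without CD44-/- replicate 2, CD44-/- replicate 3 or CD44+/+ replicate 3. Over all 16 alternatives Rrm2 kept an unadjusted p under 0.05 in 9 and Dut in 11, and median-ratio scaling was among those in which Rrm2 did not. With the replicate block Tk1 reached an unadjusted p of 0.0214 in limma (adjusted p = 0.409).

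The 4 genes that rebuild chromatin behind the fork were all positive, and none had an unadjusted p under 0.05. Slbp, which binds the stem-loop at the end of histone transcripts, was at 32.0, 29.9 and 27.5 FPKM against 30.0, 33.6 and 29.8 FPKM, a log2 fold change of 0.06 (95% interval -0.11 to 0.23). Uhrf1, which brings the maintenance DNA methyltransferase to new DNA, was at 12.1, 15.2 and 12.1 FPKM against 12.4, 17.4 and 16.2 FPKM, a log2 fold change of 0.22 (95% interval -0.09 to 0.53). In both genotypes the sample numbered 2 was the highest for Uhrf1, and with the replicate block its unadjusted p was 0.0371 in limma (adjusted p = 0.471). Chaf1a and Chaf1b, subunits of the chromatin assembly factor that deposits histones at the fork, were at 0.16 (95% interval -0.03 to 0.36) and 0.09 (95% interval -0.11 to 0.30). With the replicate block the unadjusted p of Chaf1a was 0.0436 in limma (adjusted p = 0.496). Exons of Ubxn6 on the other strand cover 52.5% of the exonic bases of Chaf1a.

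Chromosome 2, which carries Cd44 at chr2:102811141-102901665, also carries 5 of the 40 genes. Mcm10, Dut and Pcna had positive fold changes, Gins1 and E2f1 did not, and the nearest of the 5 to Cd44 was Dut at 22.3 Mb. Whether the genome around Cd44 has a part in these values was not tested.

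In a list of 49 other replication genes, all tested, 40 of 49 had a positive fold change, against 55.8% of all genes, and the median was 0.07 on the log2 scale. With 1 sample left out the median lay between 0.04 and 0.10. Without CD44+/+ replicate 3, where it was lowest, 31 of 49 were positive, against 46.9% of all genes. Under quantile normalization 37 of 49 were positive, with a median of 0.04. An unadjusted p under 0.05 was found for 7 of the 49 (14.3%), against 7.69% of all genes, and of these 6 were higher and 1 lower in CD44-/- AMs. None passed the adjusted threshold. The count was 3 of 49 (6.12%) under median-ratio scaling and without CD44+/+ replicate 3 or CD44-/- replicate 2, it was 2 without CD44-/- replicate 3 and 1 (2.04%) without both samples numbered 2, near or below the shares of all genes given above for these settings. The lower gene was Samhd1, which breaks down deoxynucleotides and was also the most abundant of the list, at 119, 119 and 119 FPKM in CD44+/+ AMs and at 111, 107 and 105 FPKM in CD44-/- AMs. The genotypes did not overlap, although the difference was a log2 fold change of only -0.15 (SE 0.04, adjusted p = 0.427 in limma). The next most abundant genes, the polymerase subunit Pold4, the ribonuclease subunit Rnaseh2c and the histone chaperone Rbbp4, were at -0.04, -0.03 and 0.02.

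Of 28 regulators of the G1/S step, 27 were tested, since 1 lay below 0.5 FPKM. An unadjusted p under 0.05 was found for 9 (33.3%), against 7.69% of all genes, with 7 higher and 2 lower in CD44-/- AMs. The median log2 fold change of the 27 was 0.08, 20 of them were positive, against 55.8% of all genes, and again none passed the adjusted threshold. The number with an unadjusted p under 0.05 was 5 without CD44-/- replicate 3 (18.5%, against 5.34% of all genes). It was 4 without both samples numbered 2 (14.8%, against 3.26%). Cdkn1a (p21), an inhibitor of cyclin-dependent kinases and the most abundant of the list, was at 75.6, 64.9 and 69.6 FPKM in CD44+/+ AMs and at 90.1, 88.1 and 88.8 FPKM in CD44-/- AMs. No sample overlapped, CD44-/- replicate 1 was the highest of all, and the log2 fold change was 0.35 (SE 0.06, unadjusted p = 0.000369, adjusted p = 0.126 in limma). Over the other settings the adjusted p ranged from 0.0353, without CD44+/+ replicate 1, to 1.

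Cdkn2a, whose locus encodes p16 and p19Arf, was at 0.457, 0.609 and 0.887 FPKM against 0.991, 1.68 and 1.82 FPKM, again without overlap. It had the largest fold change of these lists, 1.09 (SE 0.29, adjusted p = 0.365 in limma), at a low level. Cdkn2c (p18), another inhibitor of Cdk4 and Cdk6, was at 7.65, 7.93 and 7.55 FPKM against 8.48, 9.57 and 10.3 FPKM, a log2 fold change of 0.28 (SE 0.09, adjusted p = 0.427 in limma). In the other direction, Ccnd2, which encodes the G1 cyclin D2, was at 63.9, 71.2 and 79.5 FPKM in CD44+/+ AMs and at 60.7, 52.7 and 46.8 FPKM in CD44-/- AMs. No sample overlapped, and the log2 fold change was -0.42 (SE 0.11, adjusted p = 0.325 in limma). Cyclin D3 (Ccnd3) and Cdk4, the next most abundant, were at 0.16 and 0.04. The cyclin E genes and Ccnd2 thus lay on opposite sides of 0, and that contrast itself was not tested.

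**Figure D5:**
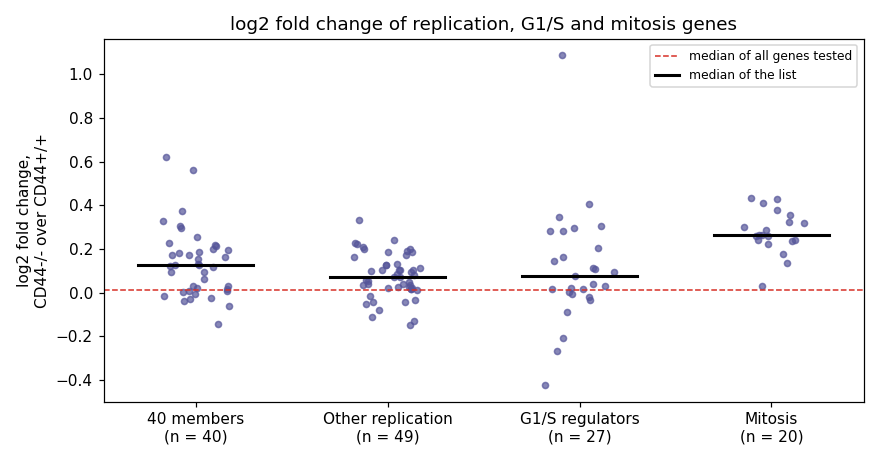
Each point is the log2 fold change (vertical axis) of one gene of 4 lists, black lines are the list medians, and the dashed line is the median of all 10800 genes tested (0.01). The medians are 0.13 for the 40 genes, 0.07 for other replication genes, 0.08 for G1/S regulators and 0.26 for mitosis genes, with Cdkn2a the single point above 1.

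Mitosis genes act later in the same cycle. All 20 of a list of 20 had a positive fold change, against 55.8% of all genes, with a median log2 fold change of 0.26. An unadjusted p under 0.05 was found for 10 (50%), against 7.69% of all genes, with none passing after adjustment. Mki67, the proliferation antigen Ki-67, was at 18.1, 20.6 and 21.6 FPKM in CD44+/+ AMs and at 22.2, 30.0 and 28.6 FPKM in CD44-/- AMs, without overlap. CD44-/- replicate 1 was the lowest of its genotype for 20 of 20 mitosis genes, as it was for 35 of 40 replication genes. Without that sample the median log2 fold change was 0.40, and it was 0.22 without CD44-/- replicate 2 and also without replicate 3. Without CD44-/- replicate 1, 19 of 20 had an unadjusted p under 0.05, against 8.55% of all genes. Of these, 2, Ccnb2 and Birc5, had an adjusted p under 0.05 in limma. The unadjusted count was 5 of 20 without CD44-/- replicate 2 or 3, against 5.19% and 5.34% of all genes. It was 7 without CD44+/+ replicate 2 or 3 (4.99% and 6.69% of all genes), and 2 without both samples numbered 2 (3.26% of all genes). The difference between the lists was not tested.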

How the data were processed

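RNA of BAL AMs from 3 CD44+/+ and 3 CD44-/- samples was sequenced from a stranded mRNA library, and groups and replicate numbers were taken from the labels. STAR was used by the authors to align the reads (mm10), and the deposited values are FPKM per gene from Cufflinks. Their normalization for depth and length was kept and no other scaling was applied. The Cuffdiff fold changes, p-values and q-values in the same table were not used. Of 24341 rows, 1 with a missing value was left out, and 101 rows with joined gene names were kept as single genes. Because FPKM are not counts, no count test was run, and counting error is unknown. p-values measure the spread between pools.

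Genes that averaged 0.5 FPKM or more were tested in limma 3.58.1 (R 4.3.3) after a log2 transform of FPKM + 0.1, with lmFit and trended eBayes, two-sided, and p-values were adjusted by Benjamini-Hochberg over all 10800 genes. The pseudocount understates fold changes of low genes. The fit was tested on simulated data. The members and gene lists were chosen with earlier results of these data known. Every sample is given for members with an unadjusted p under 0.05 or without overlap and for the 2 most abundant of each role. Of the other replication genes and the G1/S regulators, those with an adjusted p under 0.05 or an unadjusted p under 0.01 and the 4 most abundant of each list are named, and mitosis and marker genes could be named freely. Positions and exon overlaps were taken from GENCODE vM21 (GRCm38). The deviations of same-numbered samples from their group means correlated at 0.21, 0.13 and 0.21 over all genes tested, above the limit of 0.1 set for a pairing, so the replicate number was also fitted as a block. Other alternatives were pseudocounts of 1 and 0.01, a filter at a mean of 1 FPKM or none at all, scaling by median ratios or quantiles, eBayes without a trend or robust, and leaving out each sample in turn. Leaving out both samples numbered 2 was added after the data were seen, because hemoglobin transcripts were highest there.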

Additional observations from a re-analysis of the deposited data

How the results depend on the processing

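None of the 40 members had an adjusted p under 0.05 under any alternative, 30 to 36 of them had a positive log2 fold change, and their median lay between 0.09 and 0.19. The number of members with an unadjusted p under 0.05 was 7, and it was 13 with the replicate block, 3 to 20 when 1 sample was left out and 4 without both samples numbered 2. The number of other replication genes and G1/S regulators was 16, and it was 10 under median-ratio scaling, 5 without both samples numbered 2 and 7 to 19 when 1 sample was left out. Over all genes, 12 had an adjusted p under 0.05, and 6 to 36 when 1 sample was left out (36 without CD44+/+ replicate 1), and 2 without both samples numbered 2, a setting added after the data were seen. With the replicate block this number was 9, and the block changed no adjusted call among the genes named. Of the genes with an unadjusted p under 0.05, 61.7% were higher in CD44-/- AMs, against 53.2% under median-ratio scaling and 50.5% under quantile normalization. The sign was not stable for 11 members, all with a log2 fold change near 0. Under median-ratio and quantile scaling Mcm3 was at -0.0089 and -0.0044, Mcm4 at -0.0093 and -0.0055 and Mcm5 at -0.0091 and -0.0051. Without both samples numbered 2, Mcm3 was at -0.035, Mcm4 at -0.019, Mcm5 at -0.017, Mcm6 at -0.0060, Prim1 at 0.018 and Pold4 at 0.062. With 1 sample left out, log2 fold changes lay between -0.050 and 0.096 for Gmnn, -0.058 and 0.022 for Mcm2, -0.052 and 0.077 for Mcm3, -0.039 and 0.076 for Mcm4, -0.052 and 0.099 for Mcm5, -0.0050 and 0.067 for Mcm6, -0.17 and 0.082 for Gins1, -0.057 and 0.014 for Pola1, -0.075 and 0.063 for Prim1, -0.012 and 0.092 for Pcna, -0.074 and 0.037 for E2f1, and -0.11 and 0.011 for Pold4. Absolute depth is unknown. With 3 pools per genotype, a log2 fold change whose 95% interval includes 0 could not be told from 0, and the intervals are not adjusted for the number of genes tested. The causes of these shifts were not tested.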

Other observations

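Rows of replication-dependent and other clustered histone genes (names beginning Hist1 to Hist4) numbered 67, of which 14 were at 0 in every sample and 14 were tested. Most such transcripts lack a poly(A) tail and their genes are near-identical, so that these values are uncertain. Of the 14, 13 had a positive log2 fold change, 3 had an unadjusted p under 0.05 in limma, none had an adjusted p under 0.05, and the median was 0.35. Hist1h1c, a linker histone, was at 31.2, 24.9 and 41.3 FPKM in CD44+/+ AMs and at 37.9, 43.5 and 47.4 FPKM in CD44-/- AMs. The groups overlapped, and its log2 fold change was 0.43 (SE 0.16, adjusted p = 0.579 in limma). Summed over all histone rows, the samples held 122, 117 and 142 FPKM in CD44+/+ and 140, 158 and 162 FPKM in CD44-/- AMs, with the lowest CD44-/- sample below the highest CD44+/+ sample. Hist1h1c and Hist1h4k were chosen after their values were seen.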
